A study of Danio rerio with 24 samples.

Results

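Most of the genes described here encode subunits and partners of ATP-dependent chromatin remodelling complexes. They were taken as every gene of the deposited FPKM table (fragments scaled to transcript length and library size) whose lower-case symbol begins with smarc or ino80, or with chd, arid or baz followed by a digit. The rule found 48 of the 25067 genes in the table, and all 48 passed the filter for testing, at least 1 FPKM in at least 2 of the 24 libraries. By the complex or family their products are best known from, 16 were placed with BAF (also called SWI/SNF), 6 with ISWI and its partners, 11 with the CHD family and 6 with INO80. Another 3 encode other SNF2-type enzymes, and 6 encode other proteins with an ARID DNA-binding domain. These 6, arid3a, arid3b, arid3c, arid4a, arid5a and arid5b, were not placed with any of the complexes. They match the rule by name, and the counts of remodeller genes below include them.

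Remodelling complexes spend ATP to slide, evict or exchange nucleosomes and so open or close stretches of DNA to transcription and repair. Each complex is built around a SNF2-type ATPase, and several of its other subunits can be supplied by alternative genes, so that cell types may hold differently composed complexes. In mouse, blood stem and progenitor cells depend on the NuRD ATPase Chd4 and on the ISWI ATPase Smarca5, and the BAF subunit Smarcd2 is needed for granulocyte development.

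The libraries are of poly(A) RNA from zebrafish cells sorted on 2 transgenes, kdrl:mCherry, driven by an endothelial promoter, and CD41:GFP, driven by a promoter active in thrombocytes and in stem and progenitor cells of the blood (HSPCs). From tails there were libraries of HSPC, of endothelial cells (EC) and of double-negative cells (DN), which showed neither reporter, at 36 hours post fertilization (hpf) and at 3 and 4 days post fertilization (dpf), and of DN alone at 52 hpf. From kidney marrow of CD41:GFP fish at 3 months post fertilization (mpf) there were libraries of HSPC and of DN. Every one of the 12 groups had 2 libraries, and the labels give no mutation or treatment for any of them. The caudal hematopoietic tissue, the tail niche where HSPCs expand, is named in sample titles from 52 hpf on and not at 36 hpf, so a contrast with that stage may hold a change in how tails were cut. Tail DN is what remains after both reporters are gated out. The kidney fish are named with CD41:GFP alone, so kidney DN may keep cells that express kdrl. That gene was at 0 and 6.98 FPKM in kidney DN. Either DN mixes many cell types. In such bulk samples fewer cells of a type and less RNA per cell cannot be told apart. HSPC and EC of 52 hpf were not analysed here, and the labels do not say whether the 2 libraries of a group came from separate clutches or sorts, so a p-value here speaks of how far these samples scatter, possibly for technical reasons alone.

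Whole reads recovered from the FPKM steps put the libraries between 1741360 and 21338169 reads. The shallowest, 4 dpf EC replicate 2, listed 33 of the 48 remodeller genes at 0, and 4 dpf HSPC replicate 2 listed 6 at 0 and had 43.9% of its FPKM on 13 mitochondrial genes. Both were left out of the fit of the other 22 libraries, whose lowest depth was 7146361 reads. The 3 dpf HSPC libraries stood apart in the fit, with 13459 and 13274 genes above 0, against 18954 to 21136 in the other 3 dpf libraries, although their 9840481 and 9401773 reads were close to the 10234298 to 13155373 of those. With all 24 libraries in the fit far fewer remodeller genes passed the test, and those counts stand beside each comparison. The labels were read against the reporters' genes. itga2b, which encodes CD41, was at 0.428 and 0 FPKM in 36 hpf HSPC, 6.54 and 7.98 FPKM in 3 dpf HSPC and 6.55 and 5.72 FPKM in 3 dpf EC. kdrl, a VEGF receptor gene of endothelium, had 5.16 and 3.68 FPKM in 36 hpf EC but was at 0.333 and 0.323 FPKM in 3 dpf EC, where 7 neutrophil markers summed to 12105 and 11175 FPKM. itga2b was thus near 0 in the libraries labelled 36 hpf HSPC and kdrl near 0 in those labelled 3 dpf EC, and results that rest on them are given under the label. The 9 HSPC markers summed to 73.4 and 46.1 FPKM in 36 hpf HSPC and 35.4 and 35.5 FPKM in 36 hpf DN. In 36 hpf EC they summed to 84.3 and 82.9 FPKM. At 3 dpf they summed to 584 and 610 FPKM in HSPC, 517 and 476 FPKM in EC and 54.5 and 38.8 FPKM in DN. The 13 endothelial markers summed to 92.0 and 78.3 FPKM in 3 dpf EC and 23.5 and 37.1 FPKM in 3 dpf DN. In 3 dpf HSPC they summed to 64.9 and 49.6 FPKM.

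The 48 genes took 0.0889% to 0.385% of the FPKM of a library, least in kidney DN replicate 1 and most in 36 hpf DN replicate 1. smarce1, which encodes the BAF57 subunit of BAF, was at 81.9 to 338 FPKM in the 22 libraries, and smarca4a, which encodes the BAF ATPase BRG1, at 26.4 to 150 FPKM. At the other end, arid5b did not exceed 2.44 FPKM in any library. Over the 10 groups with 2 libraries in the fit, the distance between a gene's highest and lowest group mean had a median of 2.02 on the log2(FPKM + 1) scale for the remodeller genes and 2.36 for all genes tested. The widest were arid3a (5.24), smarca1 (4.46), smarcd3a (4.31), chd3 (4.19) and smarcd2 (4.00), and the narrowest were smarcb1a (1.07), chd2 (1.13) and smarcc1a (1.16). Of the 48 genes, 45 passed the test in at least 1 of 11 comparisons of groups, all but smarcal1, arid3b and arid5b. The matching share of all genes tested was not computed. A single comparison called up to 48.0% of all genes, which is not the share over the 11. The count of 45 therefore does not show whether the remodeller genes differ from all genes.

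**Figure D1:**
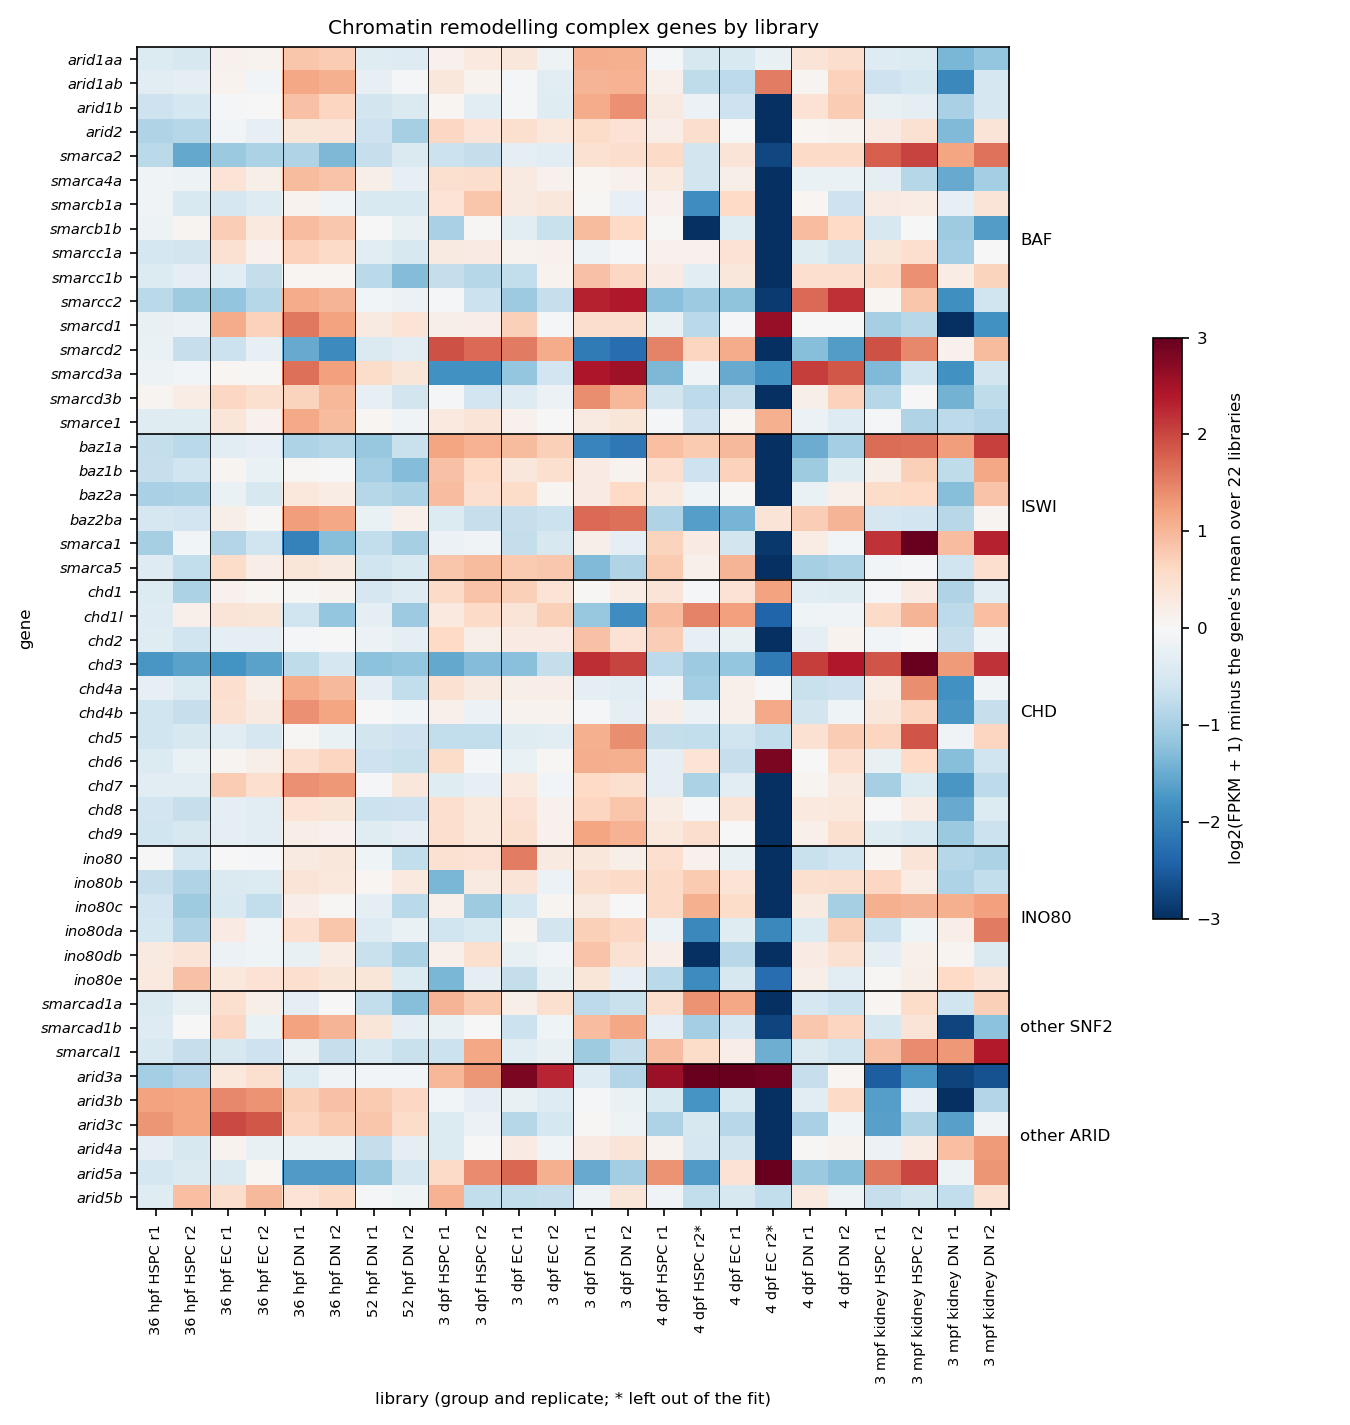
Levels of the 48 remodeller genes in each of the 24 libraries, as log2(FPKM + 1) minus the gene's mean over the 22 libraries of the fit (colour), with genes grouped by complex and libraries by stage and population. DN libraries at 3 and 4 dpf are high for smarcc2, smarcd3a, chd3 and baz2ba and low for smarcd2 and baz1a, and kidney libraries are high for smarca1, smarca2 and chd3.

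The shares that alternative genes held of their subunit family's summed FPKM, which is scaled to length, differed between populations. Of the 4 smarcd genes, whose products are alternative BAF60 subunits, smarcd2 made up 48.7% and 45.8% of the summed FPKM in 3 dpf HSPC, 35.0% and 37.9% in 3 dpf EC and 2.04% and 1.77% in 3 dpf DN. In 36 hpf DN it made up 2.47% and 2.10%, where smarcd1 held 81.3% and 77.2%. The kidney libraries had the highest smarcd2 shares, 67.8% and 53.0% in HSPC and 68.9% and 60.5% in DN. Among chd3, chd4a, chd4b and chd5, whose products are the alternative ATPases of the NuRD deacetylase complex, chd3 held 12.3% to 27.8% in the kidney libraries and in DN of 3 and 4 dpf, and at most 1.77% in every other library of the series. smarca2, the gene of the BAF ATPase BRM, reached 25.5% to 38.1% of the summed FPKM of smarca2 and smarca4a in the kidney, against at most 11.7% in any embryonic or larval library that held either gene.

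**Figure D2:**
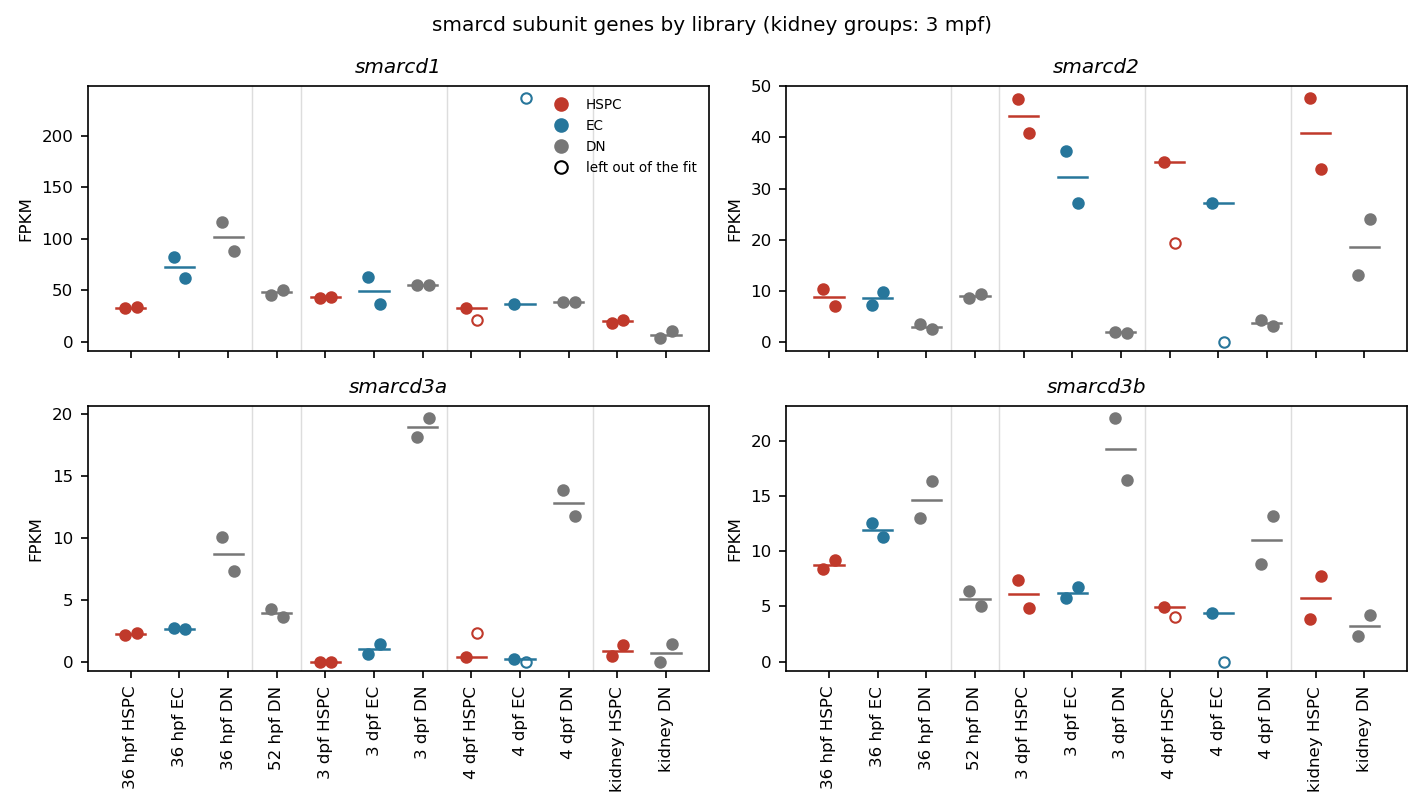
FPKM of the 4 smarcd genes in each library (points), by stage and population, with the mean of the libraries in the fit as a line; open points are the 2 libraries left out. smarcd2 is at 40.8 and 47.6 FPKM in 3 dpf HSPC and at 1.64 and 1.99 FPKM in 3 dpf DN, and smarcd3a runs the other way.

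At 36 hpf nearly all remodeller genes called between HSPC and DN were lower in HSPC. Of the 48 genes, 19 were lower and 1 was higher (limma, Benjamini-Hochberg adjusted p under 0.05 over 21024 genes), while 13.1% of all genes tested were called lower, 8.86% higher and 22% in either direction. The median log2 fold change of the remodeller genes was -0.81, and that of all genes 0.00. The lower genes were 10 of the 16 BAF genes, 5 of 11 CHD genes, 2 of 6 INO80 genes and 2 of 6 ISWI genes. smarcc2, which encodes the BAF170 scaffold subunit, was at 3.18 and 2.47 FPKM in HSPC and at 14.7 and 13.8 FPKM in DN. Its log2 fold change was -2.0 ± 0.40 (standard error, adjusted p = 0.00262). chd4b, a NuRD ATPase gene, was at 25.3 and 23.7 FPKM in HSPC and at 101 and 89.6 FPKM in DN (-1.91 ± 0.29, adjusted p = 0.000429). For both genes, picked by their calls in these same libraries, the HSPC libraries lay far below the DN libraries, which is no separate evidence. chd7, a CHD ATPase gene mutated in human CHARGE syndrome, was at 22.1 and 21.9 FPKM in HSPC, against 74.4 and 71 FPKM in DN (-1.68 ± 0.30, adjusted p = 0.00115). baz2ba, a bromodomain partner of ISWI ATPases, was at 22.2 and 21.2 FPKM in HSPC, against 78.4 and 73.6 FPKM in DN (-1.76 ± 0.27, adjusted p = 0.000429). The gene called higher, smarcd2, was at 10.3 and 7.06 FPKM in HSPC, against 3.52 and 2.41 FPKM in DN (1.28 ± 0.33, adjusted p = 0.0115). That call was lost without HSPC replicate 1 (adjusted p = 0.114), without DN replicate 2 (adjusted p = 0.108) and with a common FPKM sum, which gave 0 higher and 24 lower. The others called lower were smarcd1, smarcd3a, smarce1, arid1aa, arid1ab, arid1b, arid2, smarcc1a, smarca4a, ino80da, ino80b, chd4a, chd8, chd9 and smarca5, with log2 fold changes of -1.59 to -0.70.

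A further list of 63 genes held other subunits of these complexes and also SNF2-type enzyme genes outside them, such as hells, atrx and rad54l. They are called further complex genes here for short. Of the 56 that were tested, 23 were lower in 36 hpf HSPC and 0 higher. gatad2b and mta2, both of which encode NuRD subunits, were among them (-2.06 ± 0.40 and -1.85 ± 0.25). Mitochondrial genes held 25.2% and 25.4% of the FPKM in 36 hpf HSPC and 7.49% and 8.05% in 36 hpf DN. The 8 epidermal markers summed to 15013 and 15849 FPKM in HSPC and 8695 and 9932 FPKM in DN, and the 10 neural markers, all above 0 in every one of these libraries, to 477 and 489 FPKM in HSPC and 2230 and 2007 FPKM in DN. The 7 neutrophil markers summed to 1122 and 819 FPKM in HSPC and 274 and 330 FPKM in DN. The part of these shifts in the result was not tested. The count of 20 fell to 10 and 11 without HSPC replicate 1 or 2 and to 7 and 12 without DN replicate 1 or 2. Of 15 named calls, arid1aa, baz2ba, chd4b, chd7 and smarcc2 held with each library left out, and chd4b and smarcc2 with all 24 libraries, where 2 remodeller genes in all were called.

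EC at 36 hpf were set against the same DN libraries. Here 5 of the 48 genes were lower in EC and 2 higher, against 4.97% and 6.74% of all genes tested, 11.7% in either direction. The median of the remodeller genes was -0.40 and that of all genes 0.08. smarcc2 was at 2.2 and 3.02 FPKM in EC, against the DN values above (-2.08 ± 0.40, adjusted p = 0.00394), and smarcd2 at 7.21 and 9.83 FPKM (1.26 ± 0.33, adjusted p = 0.0214). The other calls were smarcd3a, baz2ba, arid1ab and smarce1, which were lower, and arid5a, an RNA-binding protein gene in mouse, at 1.42 and 2.4 FPKM in EC and with 0 reads in both DN libraries, which makes it at least 22.9-fold higher by a floor of 3 reads per library. The neural markers summed to 826 and 754 FPKM in EC and 2230 and 2007 FPKM in DN, the 6 erythroid markers to 15334 and 10988 FPKM in EC and 4250 and 4499 FPKM in DN, and the neutrophil markers to 2365 and 3766 FPKM in EC and 274 and 330 FPKM in DN, with every gene of these lists above 0. Their part in the result was not tested. No named call held with each library left out: the count of 7 fell to 1 without EC replicate 1, EC replicate 2 or DN replicate 2 and to 0 without DN replicate 1 or with all 24 libraries. Scaled to a common FPKM sum, 0 were higher and 6 lower.

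At 3 dpf the remodeller genes that differed between HSPC and DN went both ways, with smarcd2, baz1a and smarca5 higher in HSPC and smarcd3a, chd3 and smarcc2 lower. Of the 48 genes 8 were higher and 16 lower in HSPC, where 15.3% and 32.7% of all genes tested were called in those directions and 48.0% in either. The share of remodeller genes called was thus near that of all genes, and their medians were -0.29 and -0.41. smarcd2 was at 47.6 and 40.8 FPKM in HSPC, against 1.99 and 1.64 FPKM in DN (4.00 ± 0.33, adjusted p = 7.71e-08). baz1a, which encodes ACF1, the ISWI partner that helps space nucleosomes after replication, was at 55.8 and 50.3 FPKM in HSPC, against 5.36 and 4.69 FPKM in DN (3.17 ± 0.27, adjusted p = 1.17e-07). smarca5, which encodes its ATPase SNF2H, was at 117 and 128 FPKM in HSPC, against 25.6 and 34.8 FPKM in DN (2.0 ± 0.29, adjusted p = 2.28e-05). Both genes of this ISWI pair were thus far above DN in each HSPC library. The other ISWI ATPase gene, smarca1, was at 5.66 and 5.93 FPKM in HSPC, against 7.41 and 5.24 FPKM in DN, and its libraries overlapped. Also higher were arid5a (2.28 ± 0.48), chd1l, which encodes a remodeller switched on by DNA-damage signalling (1.94 ± 0.49), arid3a (1.78 ± 0.34), smarcad1a, the gene of an enzyme that keeps heterochromatin through replication in mammalian cells (1.63 ± 0.38), and smarcb1a (0.73 ± 0.28).

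The genes lower in 3 dpf HSPC were led by BAF and NuRD alternatives. smarcd3a, one of the genes of the BAF60c subunit, which acts in heart and muscle formation in mouse, had 0 reads in both HSPC libraries and was at 18.2 and 19.7 FPKM in DN. By the floor of 3 reads per library it was at least 223-fold lower in HSPC (adjusted p = 4.02e-07), in the 2 libraries that listed the fewest genes above 0 of the fit. chd3, a NuRD ATPase gene, was at 0.5 and 0.778 FPKM in HSPC, against 19.2 and 16.8 FPKM in DN (-3.54 ± 0.42, adjusted p = 2.91e-06). chd5, the NuRD ATPase gene expressed mainly in neurons in mammals, also had 0 reads in both HSPC libraries and was at 2.49 and 3.4 FPKM in DN, at least 89.8-fold lower. smarcc2 was at 5.96 and 3.69 FPKM in HSPC, against 35 and 37.5 FPKM in DN (-2.70 ± 0.40, adjusted p = 3.31e-05). For all 4 genes, called in these same libraries, every HSPC library lay below every DN library, which is no separate evidence. The others called lower were baz2ba (-2.23 ± 0.27) and smarcc1b, smarcd3b, arid1b, smarcb1b, ino80da, smarca2, smarcad1b, ino80b, arid1aa, chd7 and chd9, from -1.53 to -0.69. The broadly expressed ATPase genes smarca4a, at 108 and 112 FPKM in HSPC and 80.5 and 85.7 FPKM in DN, and chd4a, at 68 and 59.5 FPKM in HSPC and 41.2 and 39.5 FPKM in DN, were not called.

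Of the 56 further complex genes, 12 were higher and 12 lower in 3 dpf HSPC. Those higher included rbbp4, a histone chaperone gene shared by NuRD and other complexes (1.73 ± 0.32). Also higher were ruvbl1 and ruvbl2, which encode the AAA ATPases of INO80 (2.24 ± 0.32 and 2.47 ± 0.44). So was hells, an SNF2-type enzyme gene outside these complexes (3.22 ± 0.49). Those lower included dpf3, the gene of a BAF45 subunit, at 0 in both HSPC libraries and at 23.1 and 22.5 FPKM in DN, and mbd3b, of the NuRD methyl-binding family, at 4 and 1.41 FPKM in HSPC and 41.1 and 34.6 FPKM in DN (-3.48 ± 0.48). The 10 neural markers summed to 6.74 and 19.9 FPKM in HSPC, with 7 of 10 above 0 in each library and snap25b at 0 in both, and to 3518 and 3300 FPKM in DN, with 10 of 10 above 0. The 10 DNA replication genes summed to 1636 and 1617 FPKM in HSPC and 213 and 176 FPKM in DN. The 7 neutrophil markers, all above 0, summed to 4561 and 4334 FPKM in HSPC and 120 and 272 FPKM in DN, in the direction of smarcd2, and the 7 skeletal muscle markers to 1.75 and 4.28 FPKM in HSPC, with 3 of 7 above 0, and 129 and 193 FPKM in DN. At 36 hpf the muscle markers ran against smarcd3a, which was lower in HSPC. They summed to 2027 and 2293 FPKM in HSPC and 766 and 1177 FPKM in DN. The part of these lists and of the lower number of genes above 0 in 3 dpf HSPC was not tested. Of 19 named calls 16 held with each library left out, all but chd7, chd9 and smarcad1b, whose adjusted p then reached 0.117, 0.131 and 0.179. With all 24 libraries 8 were called in all, 3 higher and 5 lower: smarcd2, baz1a, arid3a, smarcd3a, chd3, chd5, smarcc2 and baz2ba.

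The change of the HSPC against DN difference between the stages was tested directly, as the log2 fold change at 3 dpf minus that at 36 hpf. It was called for 14 of the 48 genes, 11 towards HSPC and 3 towards DN, against 9.13% and 22.2% of all genes and 31.3% in either direction. The median was 0.36 for the remodeller genes and -0.48 for all genes. The largest moves towards HSPC were those of baz1a (3.03 ± 0.39, adjusted p = 5.36e-05), smarca5 (2.88 ± 0.41, adjusted p = 0.000121) and smarcd2 (2.72 ± 0.47, adjusted p = 0.000537). smarca5 passed the test in opposite directions at the 2 stages, at 49.7 and 39.2 FPKM in HSPC and 85.2 and 79.3 FPKM in DN at 36 hpf (-0.88 ± 0.29, adjusted p = 0.0376). The lower call at 36 hpf did not hold without any one of the 4 libraries of that stage, with adjusted p of 0.0713 to 0.232. Towards DN moved smarcd3a (-2.75 ± 0.60), chd3 (-2.50 ± 0.59) and chd5 (-1.51 ± 0.53). The 3 dpf side rests on the HSPC libraries with fewer genes above 0, and the marker lists given for both stages move with it; their part was not tested. Of 12 named calls, arid3a, baz1a, chd3, chd4b, smarca4a, smarca5, smarcd2 and smarcd3a held with each library left out. With all 24 libraries 4 were called, arid3a, chd3, chd5 and smarcd3a.

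**Figure D3:**
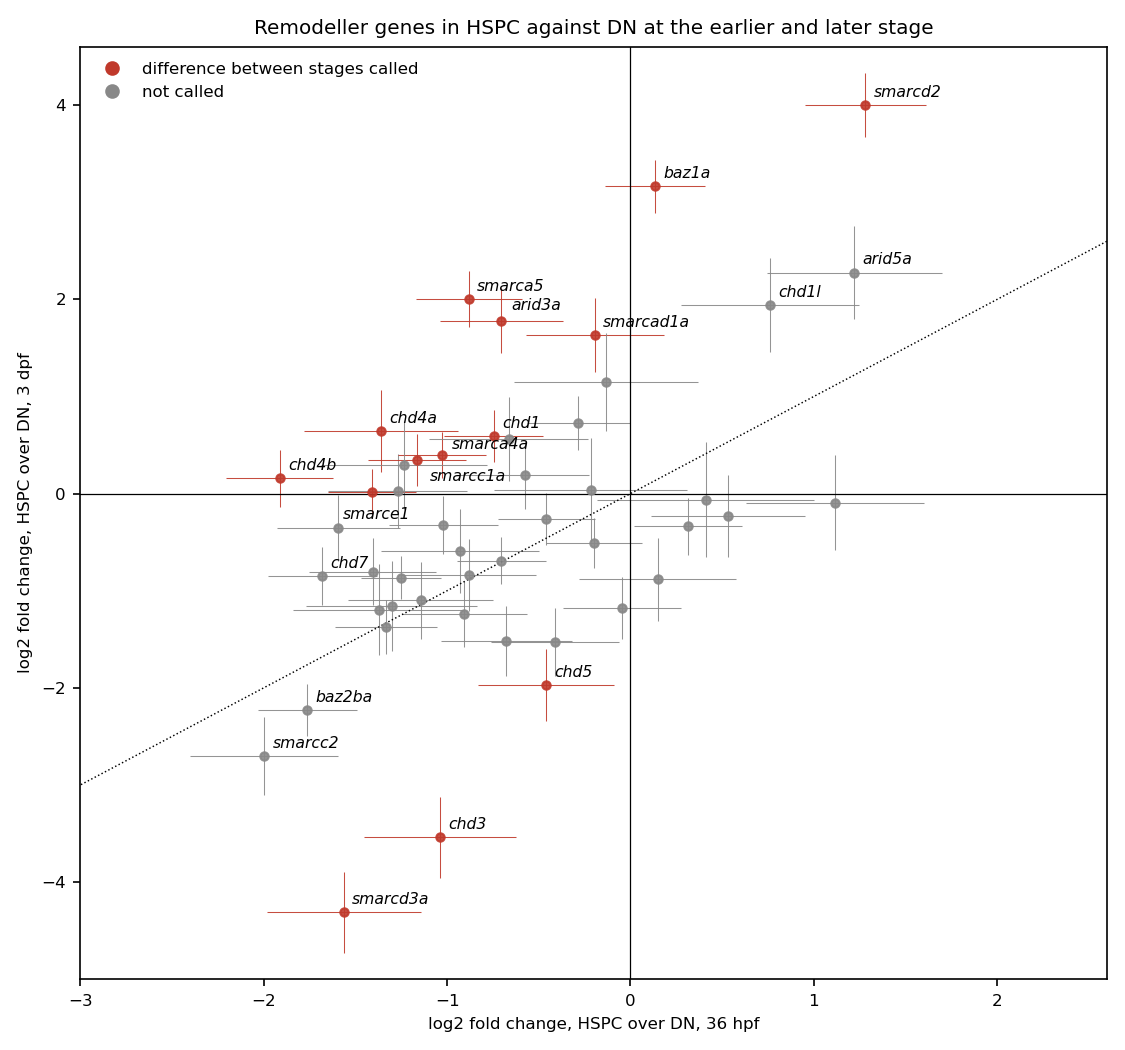
Log2 fold change of HSPC over DN at 36 hpf (horizontal axis) and at 3 dpf (vertical axis) for each of the 48 remodeller genes, with standard errors from limma as bars and a dotted line where both are equal; red points are the 14 genes whose difference between stages passed the test. smarcd2, baz1a and smarca5 lie far above the line, and smarcd3a, chd3 and chd5 below it.

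EC at 3 dpf were compared with the same 3 dpf DN libraries, so this contrast is not independent of the HSPC one. Of the 48 genes 7 were higher and 15 lower in EC, against 16.4% and 24.8% of all genes tested and 41.2% in either direction. The median was -0.42, and -0.16 over all genes. smarcd2 was at 37.3 and 27.1 FPKM in EC (3.54 ± 0.33), baz1a at 47.1 and 39.9 FPKM (2.88 ± 0.27) and smarca5 at 114 and 115 FPKM (1.91 ± 0.29), all against the DN values above. arid3a, which encodes a DNA-binding factor of B cells in mouse, was at 72.1 and 50 FPKM in EC and 6.93 and 4.68 FPKM in DN (3.19 ± 0.34, adjusted p = 2.19e-06). arid5a, chd1l and smarcad1a were higher as well (2.67, 2.05 and 1.05). The smarcad1a call did not hold with any single library left out, at log2 fold changes of 0.89 to 1.21. smarcd3a was at 0.598 and 1.39 FPKM in EC (-3.35 ± 0.42), chd3 at 0.827 and 1.65 FPKM (-3.11 ± 0.42) and smarcc2 at 2.41 and 3.52 FPKM (-3.24 ± 0.40), and 12 more genes were lower. Among the 56 further complex genes 12 were higher and 13 lower. The neural markers summed to 126 and 214 FPKM in EC and 3518 and 3300 FPKM in DN, the DNA replication genes to 962 and 1675 FPKM in EC and 213 and 176 FPKM in DN, and the neutrophil markers to 12105 and 11175 FPKM in EC and 120 and 272 FPKM in DN. Every gene of these lists was above 0. The 9 HSPC markers summed to 517 and 476 FPKM in EC and 54.5 and 38.8 FPKM in DN. The part of all these lists in the result was not tested. Of 19 named calls 14 held with each library left out, and with all 24 libraries 7 were called, smarcd2, arid3a, smarcd3a, smarcc2, chd3, baz2ba and chd5.

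Between HSPC and EC at 3 dpf 1 of the 48 genes was called, arid3a, at 19.6 and 24.9 FPKM in HSPC and 72.1 and 50 FPKM in EC (-1.40 ± 0.34, adjusted p = 0.0187). Of all genes tested 6.18% were called lower in HSPC, 0.595% higher and 6.78% in either direction. None of the 48 was called higher by limma, and none was higher at an unadjusted p under 0.05 or by limma-voom. The call of arid3a was lost without EC replicate 1 (adjusted p = 0.196), without HSPC replicate 1 (adjusted p = 0.105) and with all 24 libraries. A p that misses the threshold does not show that the 2 populations hold equal levels, and the EC libraries carried itga2b, HSPC markers and neutrophil markers. The 9 HSPC markers summed to 517 and 476 FPKM in EC and 584 and 610 FPKM in HSPC. The neutrophil markers summed to 12105 and 11175 FPKM in EC and 4561 and 4334 FPKM in HSPC. Against the neutrophil markers, smarcd2, not called here, ran the other way, at 37.3 and 27.1 FPKM in EC and 47.6 and 40.8 FPKM in HSPC. The part of the markers in the level of smarcd2 was not tested. At 4 dpf, where each population had 1 library in the fit and no test was made, arid3a was at 61.3 FPKM in HSPC and 101 FPKM in EC, smarcd2 at 35.2 FPKM in HSPC and 27.1 FPKM in EC, and baz1a at 45.8 FPKM in HSPC and 48.3 FPKM in EC.

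Within HSPC, remodeller genes were more often higher than lower at 3 dpf against 36 hpf. Of the 48 genes 18 were higher and 3 lower, while 13.2% of all genes were called higher, 26.8% lower and 40.1% in either direction. Medians were 0.55 for the remodeller genes and -0.31 for all genes. The higher genes were 7 of 16 BAF genes, 4 of 6 ISWI genes, 4 of 11 CHD genes, smarcad1a, arid3a and arid5a. smarcd2 was at 47.6 and 40.8 FPKM at 3 dpf and 10.3 and 7.06 FPKM at 36 hpf (2.24 ± 0.33, adjusted p = 6.09e-05). smarca5 was at 117 and 128 FPKM at 3 dpf and 49.7 and 39.2 FPKM at 36 hpf (1.45 ± 0.29), and baz1a at 55.8 and 50.3 FPKM at 3 dpf and 14.2 and 13.4 FPKM at 36 hpf (1.87 ± 0.27). Besides baz1a, the other ISWI partner genes baz1b (1.39 ± 0.43) and baz2a (1.68 ± 0.45), whose products WSTF and TIP5 pair with SNF2H in mammals, were higher too. chd1, the gene of a remodeller that travels with elongating RNA polymerase, was at 23.7 and 29.2 FPKM at 3 dpf and 11.4 and 7.65 FPKM at 36 hpf (1.40 ± 0.27).

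Lower at 3 dpf were smarcd3a (0 reads against 2.17 and 2.34 FPKM at 36 hpf, at least 26.6-fold), arid3c (7.36 and 8.87 FPKM at 3 dpf, 26.8 and 24.4 FPKM at 36 hpf, -1.55 ± 0.42) and the INO80 subunit gene ino80e (-1.40 ± 0.43). Among the 56 further complex genes 23 were higher and 3 lower at 3 dpf. Between the same stages the DNA replication genes summed to 1636 and 1617 FPKM at 3 dpf and 450 and 403 FPKM at 36 hpf, mitochondrial genes held 14.0% and 13.1% of FPKM at 3 dpf and 25.2% and 25.4% at 36 hpf, and the epidermal markers summed to 178 and 175 FPKM at 3 dpf, with lye and s100a11 at 0, and 15013 and 15849 FPKM at 36 hpf. The neutrophil markers summed to 4561 and 4334 FPKM at 3 dpf and 1122 and 819 FPKM at 36 hpf, and 13459 and 13274 genes were above 0 at 3 dpf and 20520 and 19859 at 36 hpf. Their part in the result was not tested. The count of 21 fell to 11 without 36 hpf HSPC replicate 2 and to 2, arid3a and smarcd3a, with all 24 libraries. Of 17 named calls 8 held with each library left out: arid3a, arid3c, baz1a, chd1, chd9, smarca5, smarcd2 and smarcd3a.

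**Figure D4:**
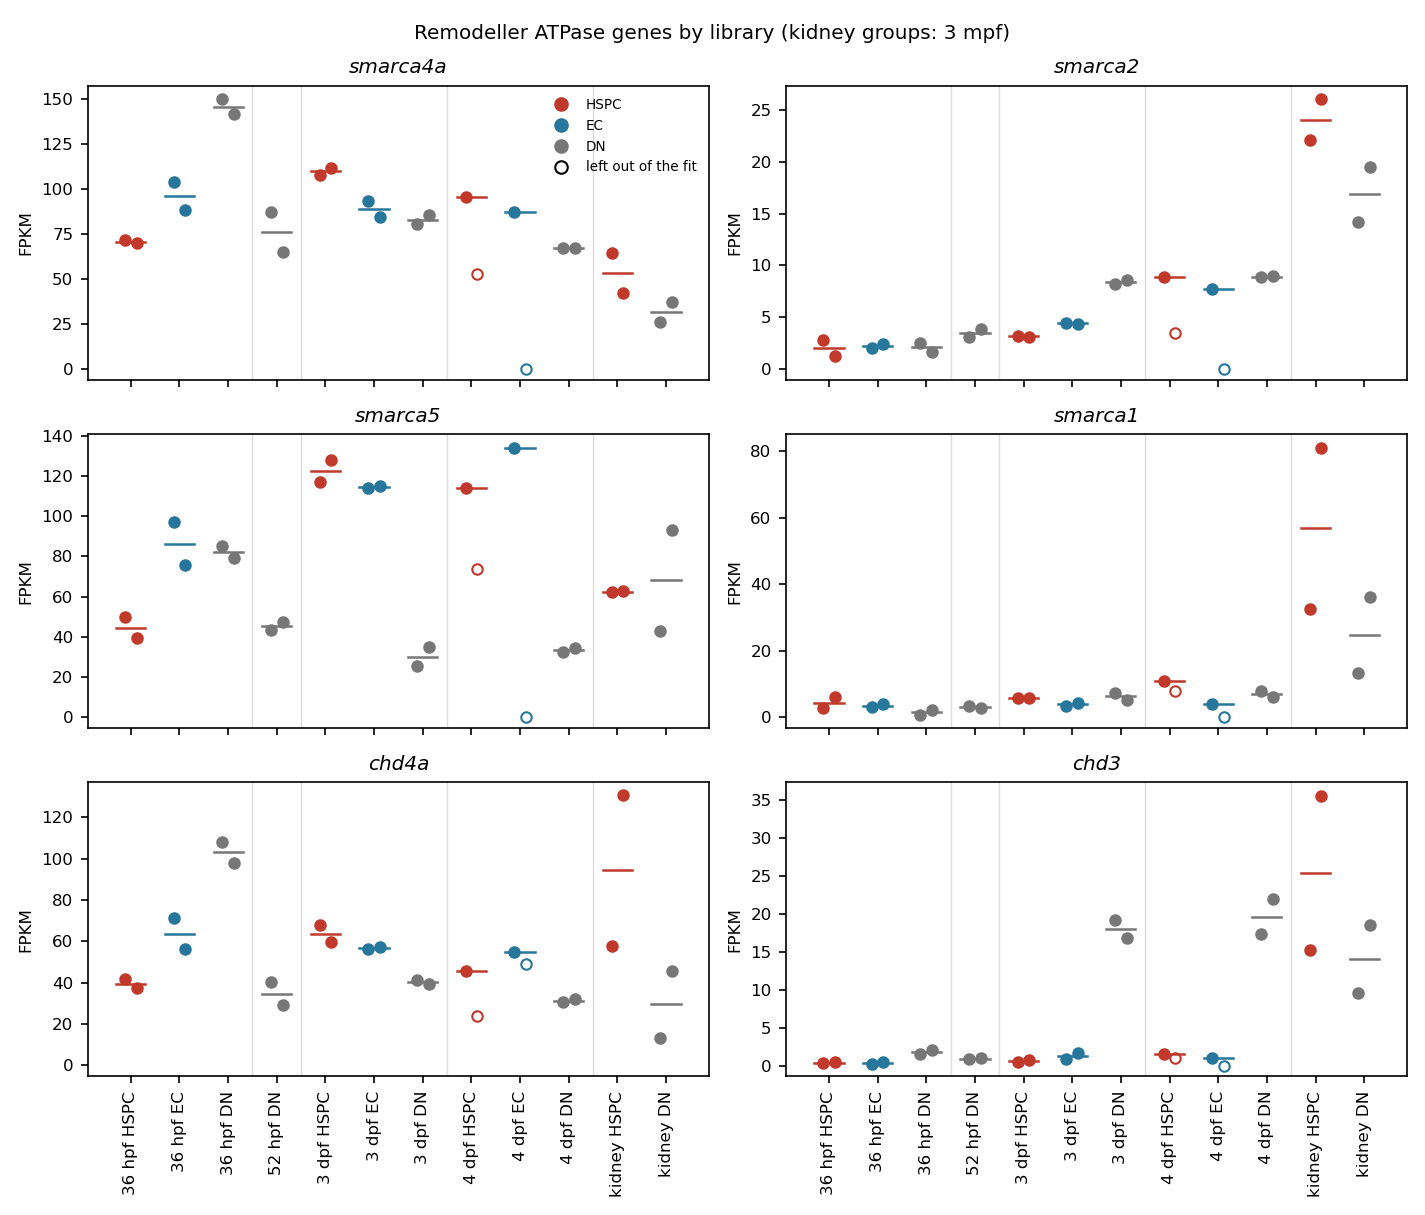
FPKM of 6 remodeller ATPase genes in each library (points), by stage and population, with the mean of the libraries in the fit as a line; open points are the 2 libraries left out. smarca5 is at 114 to 134 FPKM in HSPC and EC libraries of 3 and 4 dpf that entered the fit and at 25.6 to 34.8 FPKM in DN of those stages, and smarca1, smarca2 and chd3 have their highest library in the kidney.

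DN cells were followed over 4 stages. At 52 hpf 13 of the 48 genes were lower and 1 higher than at 36 hpf, while 6.24% of all genes were called lower, 4.98% higher and 11.2% in either direction. The median was -0.86 for the remodeller genes and -0.13 for all genes. Both chd4 genes led, chd4a at 40.2 and 29.1 FPKM at 52 hpf and 108 and 98 FPKM at 36 hpf (-1.56 ± 0.42), and chd4b at 39.2 and 36.4 FPKM at 52 hpf and 101 and 89.6 FPKM at 36 hpf (-1.31 ± 0.29). The genes of the BAF ATPase and of its largest ARID subunits, smarca4a, arid1aa, arid1ab and arid1b, were lower as well (-1.25 to -0.94). smarcd2 was the gene called higher, at 8.57 and 9.28 FPKM at 52 hpf and 3.52 and 2.41 FPKM at 36 hpf (1.34 ± 0.33). Of the 56 further complex genes 14 were lower and 0 higher by limma, with a median of -0.80. The 6 erythroid markers summed to 91200 and 84679 FPKM at 52 hpf, which was 17.3% and 16.2% of all FPKM, and to 4250 and 4499 FPKM at 36 hpf. The neutrophil markers summed to 1992 and 3315 FPKM at 52 hpf and 274 and 330 FPKM at 36 hpf, in the direction of smarcd2, and the neural markers to 815 and 827 FPKM at 52 hpf and 2230 and 2007 FPKM at 36 hpf, in the direction of the genes called lower. Every gene of these lists was above 0, and their part in the result was not tested. None of the 12 named calls held with each library left out: the count of 14 fell to 0 without 36 hpf replicate 1, 1 without 36 hpf replicate 2, and 3 and 2 without 52 hpf replicate 1 and 2, and to 0 with all 24 libraries.

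Between 52 hpf and 3 dpf, 20 of the 48 genes were higher and 2 lower in DN, against 19.3% and 11.5% of all genes tested and 30.8% in either direction. The median was 0.75, and 0.16 over all genes. chd3 was at 19.2 and 16.8 FPKM at 3 dpf and 0.85 and 0.946 FPKM at 52 hpf (3.32 ± 0.42, adjusted p = 5.15e-05). smarcc2 was at 35 and 37.5 FPKM at 3 dpf and 5.89 and 5.45 FPKM at 52 hpf (2.48 ± 0.40), smarcd3a at 18.2 and 19.7 FPKM at 3 dpf and 4.21 and 3.59 FPKM at 52 hpf (2.02 ± 0.42), and chd5 at 2.49 and 3.4 FPKM at 3 dpf and 0.131 and 0.0904 FPKM at 52 hpf (1.82 ± 0.37). For these 4 genes, picked by their calls in the same libraries, no 52 hpf library reached any 3 dpf library, which is no separate evidence. The other genes called higher ranged from 0.81 (arid4a, an RB-binding protein gene in mammals) to 1.81 (smarcc1b). smarcd2 and baz1a were lower (-1.82 ± 0.33 and -1.16 ± 0.27), baz1a at 5.36 and 4.69 FPKM at 3 dpf and 10.4 and 14.7 FPKM at 52 hpf. Of the 56 further complex genes 24 were higher and 5 lower. The erythroid markers summed to 4071 and 8228 FPKM at 3 dpf and 91200 and 84679 FPKM at 52 hpf, the neural markers to 3518 and 3300 FPKM at 3 dpf and 815 and 827 FPKM at 52 hpf, and the neutrophil markers to 120 and 272 FPKM at 3 dpf and 1992 and 3315 FPKM at 52 hpf, in the direction of smarcd2. Their part in the result was not tested. Of 19 named calls 12 held with each library left out, and with all 24 libraries chd3, smarcc2, smarcd3a and chd5 were called.

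From 3 to 4 dpf 0 of the 48 genes were called by limma in DN, against 1.46% of all genes tested, 1.23% higher and 0.224% lower. At an unadjusted p under 0.05 there were 12, 3 of them higher, and limma-voom called 0. chd9 had the smallest p, at 20.5 and 25.9 FPKM at 4 dpf and 43 and 38.8 FPKM at 3 dpf (-0.80 ± 0.24, adjusted p = 0.124). chd3 was at 17.3 and 22 FPKM at 4 dpf and 19.2 and 16.8 FPKM at 3 dpf, and its libraries overlapped. smarcd3a was at 13.9 and 11.8 FPKM at 4 dpf and 18.2 and 19.7 FPKM at 3 dpf, with no overlap (-0.52 ± 0.42, adjusted p = 0.633). The 7 skeletal muscle markers ran the other way, at 1043 and 723 FPKM at 4 dpf and 129 and 193 FPKM at 3 dpf.

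**Figure D5:**
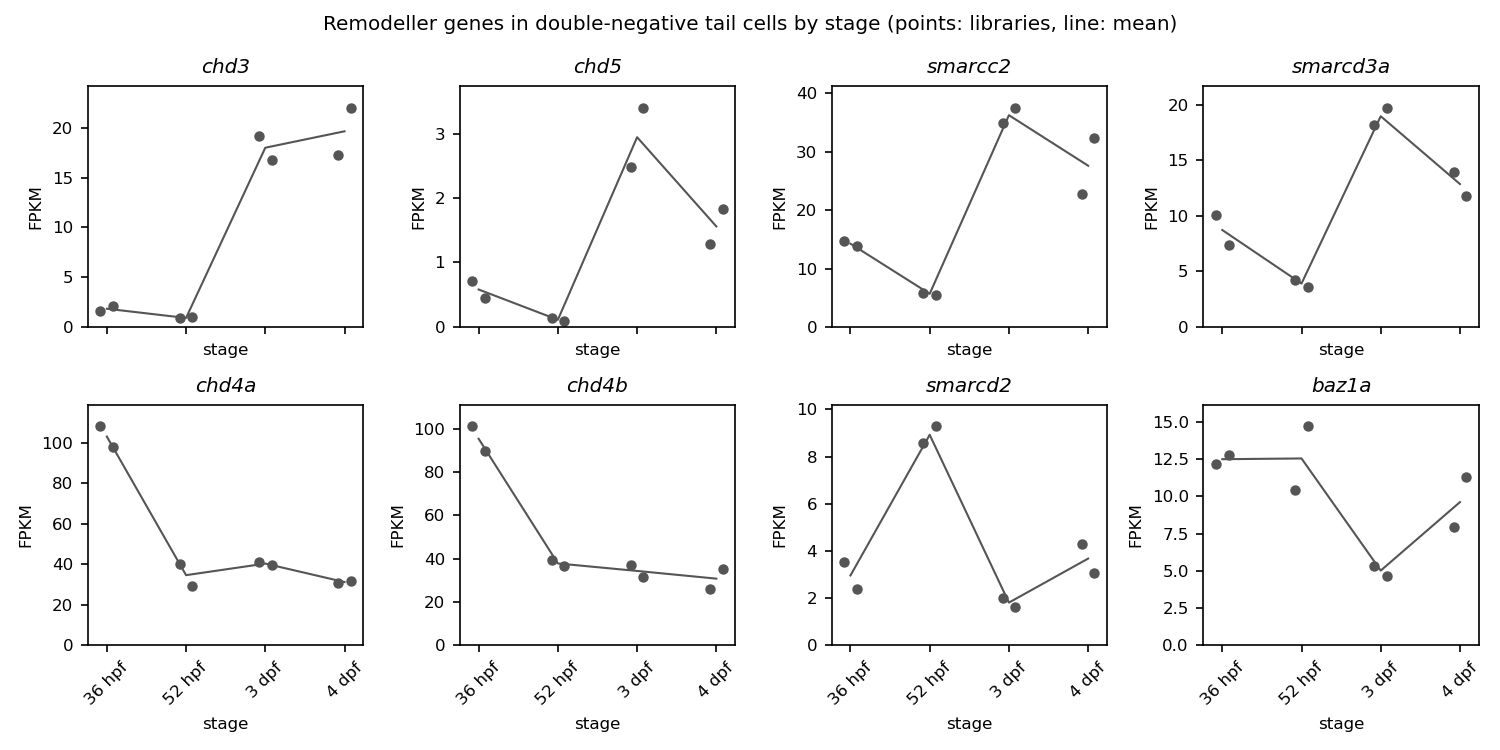
FPKM of 8 remodeller genes in DN tail libraries over 4 stages, 36 and 52 hpf and then 3 and 4 dpf (points are libraries, the line joins the means). chd3, chd5, smarcc2 and smarcd3a are lowest at 52 hpf and high at 3 and 4 dpf, chd4a and chd4b are high at 36 hpf and lower in each later library, and smarcd2 is highest at 52 hpf.

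In kidney marrow at 3 mpf 14 of the 48 genes were higher and 1 lower in HSPC than in DN, against 15.1% and 8.20% of all genes tested and 23.3% in either direction. The medians were 0.65 and, over all genes, 0.30. chd4a was at 57.7 and 131 FPKM in HSPC, against 13.4 and 45.7 FPKM in DN (1.76 ± 0.42, adjusted p = 0.00703), and chd4b at 49.2 and 60.6 FPKM in HSPC and 10.8 and 23.5 FPKM in DN (1.71 ± 0.29, adjusted p = 0.000623). smarcad1b was at 3.84 and 7.81 FPKM in HSPC, against 0 and 1.86 FPKM in DN (1.95 ± 0.46), and smarcc2 at 6.6 and 11.9 FPKM in HSPC and 1.03 and 3.8 FPKM in DN (1.66 ± 0.40). The libraries of a group stood apart by a factor of 2 or more for several of these genes. The groups did not overlap, but the genes were picked by their calls in these same libraries, so this is no separate evidence. The standard errors come from a spread shared by all groups of the fit and not from the kidney libraries alone. Between the 2 libraries of a group, the chi-square per gene of recovered reads was 147 in kidney HSPC and 151 in kidney DN. It was 10.6 to 43.1 in the other groups with 2 libraries in the fit. arid4a was the gene called lower, at 21 and 27.8 FPKM in HSPC and 45 and 58.5 FPKM in DN (-1.06 ± 0.26). The others higher were smarcd1, smarcd2, smarcb1b, smarcc1a, smarca4a, arid1aa, ino80, ino80b, chd6 and chd8, from 0.71 to 1.53.

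Of the 56 further complex genes 16 were higher and 1 lower in kidney HSPC, the lower being cecr2, a partner of ISWI ATPases, at 6.67 and 9.12 FPKM in HSPC and 22.6 and 92.3 FPKM in DN (-2.41 ± 0.44). The 7 neutrophil markers summed to 4421 and 7351 FPKM in HSPC and 786 and 5398 FPKM in DN, and the 10 DNA replication genes to 1159 and 1257 FPKM in HSPC and 503 and 654 FPKM in DN. Their part in the result was not tested. Kidney DN replicate 1 stood apart, with 4 of the 48 genes at 0 and a remodeller sum of 592 FPKM, where replicate 2 had 1060 FPKM and the HSPC libraries 1093 and 1257 FPKM. The kidney counts rest on it. Without DN replicate 1 fewer of the 48 genes were called, while the share of all genes called did not fall. Without DN replicate 2 more were called, both of the 48 and of all genes. Without HSPC replicate 2 fewer of both were called. Median-of-ratios scaling, which moved the median of all genes by -0.35, gave 5 higher and 3 lower, and a fit of the compared groups alone or of all 24 libraries called 0. Of all genes tested these 3 settings called 18.9%, 0% and 7.66%, in that order. Of 12 named calls arid1aa, chd4b and smarcd1 held with each library left out.

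Kidney HSPC were also set against 3 dpf HSPC, a contrast of stage and of organ that cannot be told apart. Of the 48 genes 6 were higher and 7 lower in kidney HSPC, against 26.9% and 3.03% of all genes tested and 29.9% in either direction. The median was -0.12, and 0.63 over all genes. chd3 was at 15.2 and 35.6 FPKM in the kidney and 0.5 and 0.778 FPKM at 3 dpf (3.90 ± 0.42, adjusted p = 1.43e-05). smarca1, the gene of the ISWI ATPase SNF2L, was at 32.5 and 81.1 FPKM in the kidney and 5.66 and 5.93 FPKM at 3 dpf (2.95 ± 0.49, adjusted p = 0.000519), and smarca2 at 22.1 and 26 FPKM in the kidney and 3.23 and 3.07 FPKM at 3 dpf (2.59 ± 0.32, adjusted p = 5.23e-05). The counterparts of smarca1 and smarca2 moved the other way, smarca5 to 62.1 and 62.8 FPKM in the kidney, against 117 and 128 FPKM at 3 dpf (-0.96 ± 0.29), and smarca4a to 64.4 and 42.3 FPKM, against 108 and 112 FPKM (-1.06 ± 0.24). Those of chd3 were not called. chd4a was at 57.7 and 131 FPKM in the kidney and 68 and 59.5 FPKM at 3 dpf, and chd4b at 49.2 and 60.6 FPKM and 43.3 and 34 FPKM. arid3a was at 0.861 and 2.07 FPKM in the kidney and 19.6 and 24.9 FPKM at 3 dpf (-3.27 ± 0.34, adjusted p = 1.06e-05). chd5 and smarcc1b (2.0 and 1.75) and the INO80 subunit gene ino80c (1.5) were higher as well, and smarcd1, smarce1, chd9 and arid1aa lower (-1.09 to -0.60).

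Of the 56 further complex genes 6 were higher in kidney HSPC and 4 lower. pbrm1, which encodes the polybromo subunit of the PBAF form of BAF, was at 12.2 and 39.4 FPKM in the kidney and 0.698 and 0.694 FPKM at 3 dpf (3.76 ± 0.45). Genes above 0 numbered 22440 and 23100 in kidney HSPC and 13459 and 13274 in 3 dpf HSPC, mitochondrial genes held 3.5% and 7.71% of FPKM in the kidney and 14.0% and 13.1% at 3 dpf, and the neutrophil markers summed to 4421 and 7351 FPKM in the kidney and 4561 and 4334 FPKM at 3 dpf. The DNA replication genes summed to 1159 and 1257 FPKM in the kidney and 1636 and 1617 FPKM at 3 dpf, and the part of these measures in the result was not tested. The rises of chd3, smarca1, smarca2 and chd5 and the fall of arid3a held with each library left out and with all 24 libraries, where these 5 were the genes called. smarca5 was not called without any one of the 4 libraries (adjusted p of 0.0528 to 0.108), nor smarca4a without kidney HSPC replicate 2 (adjusted p = 0.0761), and the count of 13 fell to 8 without 3 dpf HSPC replicate 1 and 6 without kidney HSPC replicate 2. Median-of-ratios scaling, which moved the median of all genes by -0.27, gave 5 higher and 15 lower, a common FPKM sum 6 higher and 3 lower, and the compared groups alone 0. Of all genes tested these 3 settings called 24.1%, 28.7% and 0.0143%, in that order.

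Several remodeller genes are present as duplicate pairs, whose reads could have been split by the counting where the copies are alike. In 3 dpf HSPC smarcad1a held 79.5% and 73.5% of the summed FPKM of smarcad1a and smarcad1b, against 27.8% and 26.6% in 3 dpf DN. smarcb1a, one of the genes of the core BAF subunit SNF5, held 81.6% and 73.7% of its pair in 3 dpf HSPC, against 44.8% and 46.1% in 3 dpf DN. Each a copy was higher and each b copy lower in HSPC by the test (smarcb1a 0.73 and smarcb1b -1.24, smarcad1a 1.63 and smarcad1b -1.16), although the smarcad1b call was lost when any one library was left out. The calls of smarcb1a and smarcb1b were not checked one by one in this way. The share of arid1aa within arid1aa, arid1ab and arid1b stayed between 40.4% and 52.1% in the libraries of 36 hpf to 3 dpf, in HSPC, EC and DN alike.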

How the data were processed

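Per the labels' protocols, RNA from sorted cells was extracted with the RNeasy Mini kit and made into poly(A) libraries with NEBNext Ultra reagents. GRCz10 is the genome build in the submitters' processing notes, which list HISAT, HTSeq, FastQC and DESeq2 as tools without versions or roles. The deposited values are FPKM per gene from the authors, in 1 table of 25067 genes and 24 libraries; the filter behind it was not given in the sources used here, and 557 are at 0 in every library. There were 0 other columns of per-sample values. FPKM are not counts and were tested on a log scale. Whole reads came out of the FPKM steps for 23714 of 23718 genes (99.98%, tolerance 0.01 reads), which gives the depth and a count-based alternative; floors and depths cover counting error only.

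The 21024 genes that reached 1 FPKM in 2 or more libraries were fitted as log2(FPKM + 1) on group means with limma 3.58.1 (R 4.3.3, eBayes with a trend), and Benjamini-Hochberg adjustment ran over all of them at 0.05. A fold change is on the log2(FPKM + 1) scale, which understates the change of low genes. Its error is a standard error from a spread of each gene that all groups share. The fit used 22 libraries and 10 residual degrees of freedom, without 4 dpf EC replicate 2 and 4 dpf HSPC replicate 2; 4 dpf HSPC and EC then had 1 library each and entered no test. The fit was also run on simulated data in which every group had the same scatter, which does not test unequal scatter between groups. Tables and plots were made with Python 3.11.15, numpy 2.4.6, pandas 2.3.3 and matplotlib 3.10.9.

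The members, the 63 further complex genes and the marker lists were chosen with earlier results of these data known. Named with values are SNF2-type ATPase genes averaging 5 FPKM or more and, per comparison, the 4 called genes with the largest rise and the 4 with the largest fall, where the higher group averaged 2 FPKM or more. Where a gene so named had a partner whose name differs only in a last a or b, both were named. Such pairs are not all duplicates, since baz1a and baz1b encode the distinct products ACF1 and WSTF. The complete lists of calls name further genes, and the levels and copy shares given for smarce1, smarcb1a and smarcb1b, and the further complex genes given with values, were chosen after their values were seen. Alternatives were the pseudocount, the filter, 2 other scalings, the libraries and groups fitted, the replicate number as a block, limma-voom on the recovered reads, a fold minimum and each library left out in turn.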

Additional observations from a re-analysis of the deposited data

Results flagged for a closer look

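The difference between HSPC and DN differed between 3 dpf and 36 hpf, by the test of that difference in limma, for 14 of the 48 remodeller genes. It did so for 31.3% of all genes tested, 9.13% towards HSPC and 22.2% towards DN, so the share of remodeller genes was near that of all genes. As the log2 fold change at 3 dpf minus that at 36 hpf, baz1a moved by 3.031, smarca5 by 2.883, smarcd2 by 2.720 and arid3a by 2.487 towards HSPC. The NuRD ATPase genes chd4b and chd4a moved by 2.072 and 2.003, smarcad1a by 1.829, and chd1 by 1.339. The BAF genes smarcc1a, smarce1 and smarca4a moved by 1.509, 1.428 and 1.426. Towards DN moved smarcd3a (-2.749), chd3 (-2.499) and chd5 (-1.511). The calls of chd1, chd4a, smarcad1a and chd5 did not hold with each library left out. Those of smarcc1a and smarce1 were not checked in this way.
The levels of each population stand behind these differences. chd4b was at 43.3 and 34 FPKM in HSPC at 3 dpf and 25.3 and 23.7 FPKM at 36 hpf, and in DN at 37.1 and 31.6 FPKM at 3 dpf and 101 and 89.6 FPKM at 36 hpf. smarcd2 was at 47.6 and 40.8 FPKM in HSPC at 3 dpf and 10.3 and 7.06 FPKM at 36 hpf, and in DN at 1.99 and 1.64 FPKM at 3 dpf and 3.52 and 2.41 FPKM at 36 hpf. chd3 was below 1 FPKM in all 4 HSPC libraries, and in DN it was at 19.2 and 16.8 FPKM at 3 dpf and 1.56 and 2.09 FPKM at 36 hpf.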

How the results depend on the processing

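Counts are of the 48 remodeller genes called. With all 24 libraries fewer were called in every comparison that had calls: at 36 hpf 2 for HSPC against DN and 0 for EC against DN, at 3 dpf 8 for HSPC against DN, 7 for EC against DN and 0 for HSPC against EC, 4 for the change between stages, 2 for 3 dpf against 36 hpf HSPC, 0 for 52 hpf against 36 hpf DN, 4 for 3 dpf against 52 hpf DN, 0 in the kidney and 5 for kidney against 3 dpf HSPC. The share of all genes tested fell as well. It was 7.39% and 3.35% for HSPC and EC against DN at 36 hpf, and 29.3% and 22.6% at 3 dpf. For HSPC against EC it was 0.87%, in the kidney 7.66% and for kidney against 3 dpf HSPC 15%. It was 15.5% for the change, 22.5% for HSPC between stages, and 1.95% and 13.7% for the DN contrasts with 52 hpf. Fitting the compared groups alone gave 24 for EC against DN at 36 hpf, 24 for the change between stages, 23 for 52 hpf against 36 hpf DN, and 0 for HSPC against EC at 3 dpf and for both kidney comparisons. Those fits called 28.7%, 37.9% and 24.7% of all genes in the first 3 of these comparisons, and at most 0.0143% in the others. Median-of-ratios scaling gave 13 for EC against DN at 36 hpf, 8 in the kidney and 20 for kidney against 3 dpf HSPC. It called 14.8%, 18.9% and 24.1% of all genes there. For HSPC against EC at 3 dpf a pseudocount of 0.1 gave 2 and limma-voom 3, with 14.2% and 13.7% of all genes called. With 1 library left out, counts ran from 7 to 12 for HSPC against DN and from 0 to 1 for EC against DN at 36 hpf, from 0 to 2 for HSPC against EC at 3 dpf, from 11 to 15 for HSPC of 3 dpf against 36 hpf, from 0 to 3 for DN of 52 hpf against 36 hpf, from 7 to 27 in the kidney and from 6 to 12 for kidney against 3 dpf HSPC; a lone library was then assumed to vary like the other groups. The share of all genes called fell too with any library left out, in each comparison without kidney libraries. Fewer libraries leave fewer degrees of freedom. A fit of the compared groups alone also takes its spread from those groups only. The part of either in the rises and falls of these counts was not tested. All other settings kept each count within 1.5 times.
Of 142 named calls, 71 held with each library of their comparison left out in turn and 32 with all 24 libraries, and none changed direction in any alternative. Replicate numbers are not known to pair libraries. Of 45 same-numbered pairs across groups, most of them across stages, 2 deviated together with a correlation over 0.1. Within a stage, kidney HSPC and kidney DN correlated at 0.268 and 3 dpf EC and 3 dpf DN at -0.338. Whether libraries of a stage were paired is therefore not settled. With the replicate block, the counts were 18 for HSPC and 6 for EC against DN at 36 hpf, 22 for each at 3 dpf, and 12 for kidney against 3 dpf HSPC. Of all genes it called 22.2% and 11.9% at 36 hpf, 48.1% and 41.1% at 3 dpf, and 30% for the kidney contrast. A common FPKM sum moved the median of all genes by -0.27 and -0.22 for HSPC and EC against DN at 3 dpf and by 0.23 for DN of 3 dpf against 52 hpf. The 2 libraries a group limit every value, and genes below about 1 FPKM are held near 0 by the pseudocount.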

Other observations

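4 dpf EC replicate 2 listed 33 of the 48 remodeller genes at 0, among them smarca4a, smarca5 and smarcc1a, which replicate 1 had at 87.5, 134 and 65.8 FPKM. The genes it did list were high, with smarce1 at 322 FPKM, smarcd1 at 237 FPKM and arid3a at 78 FPKM, and 2483 genes of the whole table were above 0. 4 dpf HSPC replicate 2 listed 11265 genes above 0 and had arid3a at 96.5 FPKM and smarca5 at 73.6 FPKM, where replicate 1 had 61.3 and 114 FPKM.
arid3a had the widest range of the 48 genes. It was at 72.1 and 50 FPKM in 3 dpf EC and 101 FPKM in the 4 dpf EC library of the fit, and in the kidney at 0.861 and 2.07 FPKM in HSPC and 0.525 and 0.707 FPKM in DN. It made up 84.3% and 78.0% of the summed FPKM of arid3a, arid3b and arid3c in 3 dpf EC, 53.9% and 59.7% in 3 dpf HSPC, and 25.7% and 21.1% in 3 dpf DN.
Within the smarcc genes, whose products are the alternative BAF155 and BAF170 scaffolds, smarcc2 made up 36.9% and 38.0% of the summed FPKM in 3 dpf DN, 8.65% and 5.66% in 3 dpf HSPC and 4.06% and 5.31% in 3 dpf EC. smarca1 made up 34.3% and 56.4% of the summed FPKM of smarca1 and smarca5 in kidney HSPC and 23.6% and 28.0% in kidney DN, against at most 22.4% in any embryonic or larval library that held either gene.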
